A study of Mus musculus with 4 samples.

Results

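Proteasome genes were followed in peritoneal macrophages of mice on a high-fat diet and of mice on a control diet. The members are all genes of the count tables whose symbol reads Psma, Psmb, Psmc, Psmd or Psme followed by a number, which gives 45 of 24625 genes. Of these, 5 are the immune subunits Psmb8, Psmb9, Psmb10, Psme1 and Psme2, and 38 are the other subunits and chaperones that carry these names. The remaining 2 are no proteasome subunits: Psmc3ip encodes a partner protein of meiotic recombination, and Psme2b is a single-exon copy of Psme2. The members were taken by name, in a choice made with earlier results of these data known.

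The mice were of the C57BL/6 strain (C57BL/6J in the design text). High-fat mice received a diet with 60% of its energy as fat and control mice standard chow, for 12 weeks in both groups. All mice of both diets received 3% thioglycollate medium into the peritoneal cavity, and cells were taken 4 days later. The cells are therefore elicited macrophages of an inflamed cavity in both diets, no sort is described in the labels, and the mice's age is not given there. Each diet had 2 libraries of ribosome-depleted total RNA. The labels do not say whether these were separate mice or pools, so the p-values measure the spread between these libraries only, which may be technical.

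The proteasome is the barrel-shaped protease that degrades ubiquitin-tagged proteins. Its 20S core consists of outer rings of alpha subunits and inner rings of beta subunits, and the beta subunits Psmb5, Psmb6 and Psmb7 carry the cutting sites. A 19S cap of ATPases (Psmc) and non-ATPase subunits (most Psmd) recognises, unfolds and feeds in the substrate. Interferon-gamma induces Psmb8, Psmb9 and Psmb10, which take the places of Psmb5, Psmb6 and Psmb7 in newly built cores, and the PA28 activator of Psme1 and Psme2. Immune cores favour peptides that fit MHC class I molecules, and macrophages hold both forms.

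Gene totals ran from 40527591 to 45658551 counts in the high-fat libraries and from 39347347 to 39846646 in the control libraries. Alignments at more than 1 place made up 37.5% and 42.6% of all counted lines in the high-fat libraries, against 41.5% and 48.5% in the control libraries, and were not assigned to genes. Levels are given as CPM, a library's counts after TMM scaling to a common size, and fold changes as log2 of high-fat over control from edgeR's quasi-likelihood test with its standard error (SE). Of the 45 members 44 passed the filter on low counts. The exception was Psmb11, the catalytic subunit of the thymus, with 2 and 1 counts in the high-fat and 2 and 7 in the control libraries.

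No member passed an adjusted p of 0.05 in the edgeR test, in which 78 of 12747 genes (0.612%) passed. The smallest adjusted p among the members was 0.0824, for Psmb8. At an unadjusted p under 0.05 there were 12 members, or 27.3% of those kept, against 17.0% of all genes tested: 9 higher with high-fat diet (8.56% of all genes) and 3 lower (8.46%). Higher calls made up 0.322% and lower calls 0.290% of all genes at the adjusted threshold. DESeq2 called 1 member, Psmb8 (adjusted p = 0.0292), where it called 2.87% of all genes, with 9 members (13.2% of all genes) at an unadjusted p under 0.05, and limma-voom called 0 members and 0.220% of all genes, with 12 members (16.5% of all genes) at an unadjusted p under 0.05. Over the members 27 of 44 did not overlap between diets, against 51.0% of all genes. The differences below are therefore given as values with their errors and not as calls.

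**Figure D1:**
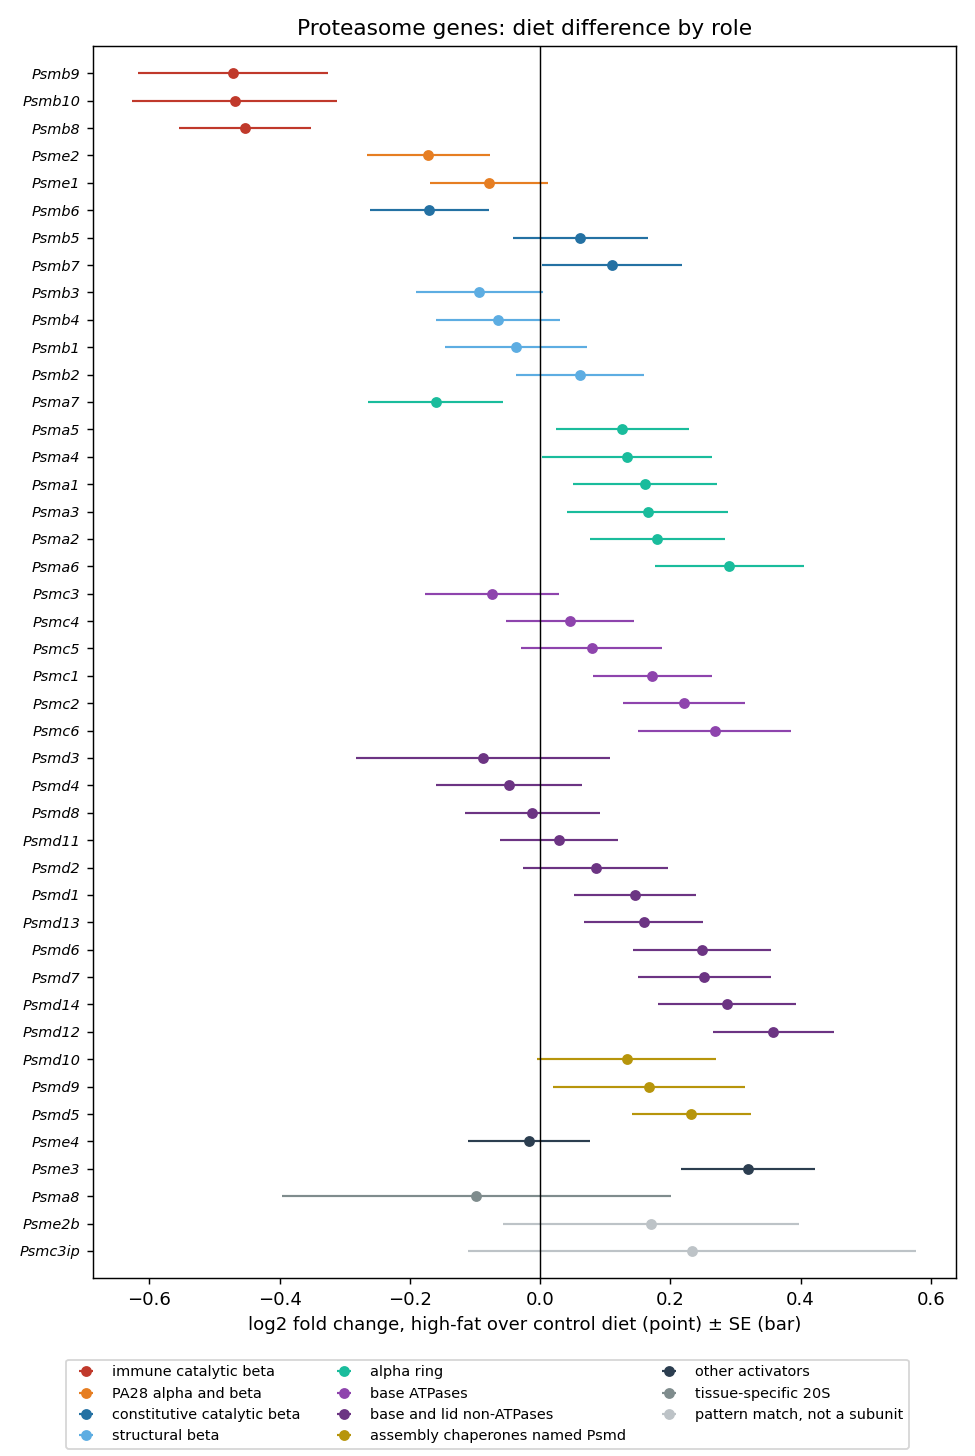
Log2 fold change of high-fat over control diet (x axis) for the 44 kept members (y axis, grouped and coloured by role), with the standard error of the edgeR fit as bars. The 3 immune catalytic subunits lie between -0.47 and -0.45, and the next lowest member is Psme2 at -0.17.

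The immune catalytic subunits had the 3 lowest log2 fold changes of the 44 members. Psmb8, which replaces Psmb5 and carries the chymotrypsin-like site, had 35.7 and 32.4 CPM in the high-fat libraries, against 46.4 and 46.8 CPM in the control libraries. Both high-fat libraries lay below both control libraries, and the gap was wider than the spread within either diet. The mean was 34.0 ± 2.32 CPM with high-fat diet and 46.6 ± 0.246 CPM with control diet (SD, n = 2 each), a fold of 0.730. Its log2 fold change was -0.45 ± 0.10 (SE), with a 95% interval from -0.68 to -0.22 and an adjusted p of 0.0824 in edgeR's test. In bulk RNA, fewer cells of a type and less RNA per cell cannot be told apart.

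Psmb9, which replaces Psmb6, had 7.60 and 7.31 CPM in the high-fat libraries, against 10.5 and 10.2 CPM in the control libraries. The diets did not overlap here either, and replicates lay close together. Its log2 fold change was -0.47 ± 0.15 (95% interval -0.80 to -0.14, adjusted p = 0.172, edgeR). It rests on 353 and 292 counts in the high-fat and 421 and 397 counts in the control libraries.

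Psmb10, which replaces Psmb7 and carries the trypsin-like site, had 12.7 and 11.3 CPM in the high-fat libraries, against 18.6 and 14.6 CPM in the control libraries. Both high-fat libraries were lower, while the control libraries differed from each other by more than the nearer of them differed from the high-fat ones. Its log2 fold change was -0.47 ± 0.16 (95% interval -0.82 to -0.11, adjusted p = 0.198, edgeR). Without control replicate 1 it was -0.29, against -0.63 without control replicate 2.

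The PA28 genes were nearly level between diets. Psme1, its alpha subunit, had 84.2 and 85.1 CPM in the high-fat libraries, against 87.7 and 91.0 CPM in the control libraries (log2 fold change -0.08 ± 0.09, 95% interval -0.28 to 0.13). Psme2, its beta subunit, had 117 and 124 CPM in the high-fat libraries, against 132 and 140 CPM in the control libraries (-0.17 ± 0.09, 95% interval -0.38 to 0.04). In both genes the diets did not overlap, yet each interval includes 0. All 5 immune members were thus separated by diet and lower with high-fat diet, as were 24.9% of all genes tested. All 5 were below 0, against 50.8% of all genes, and their median log2 fold change was -0.45 against -0.01 over all genes.

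**Figure D2:**
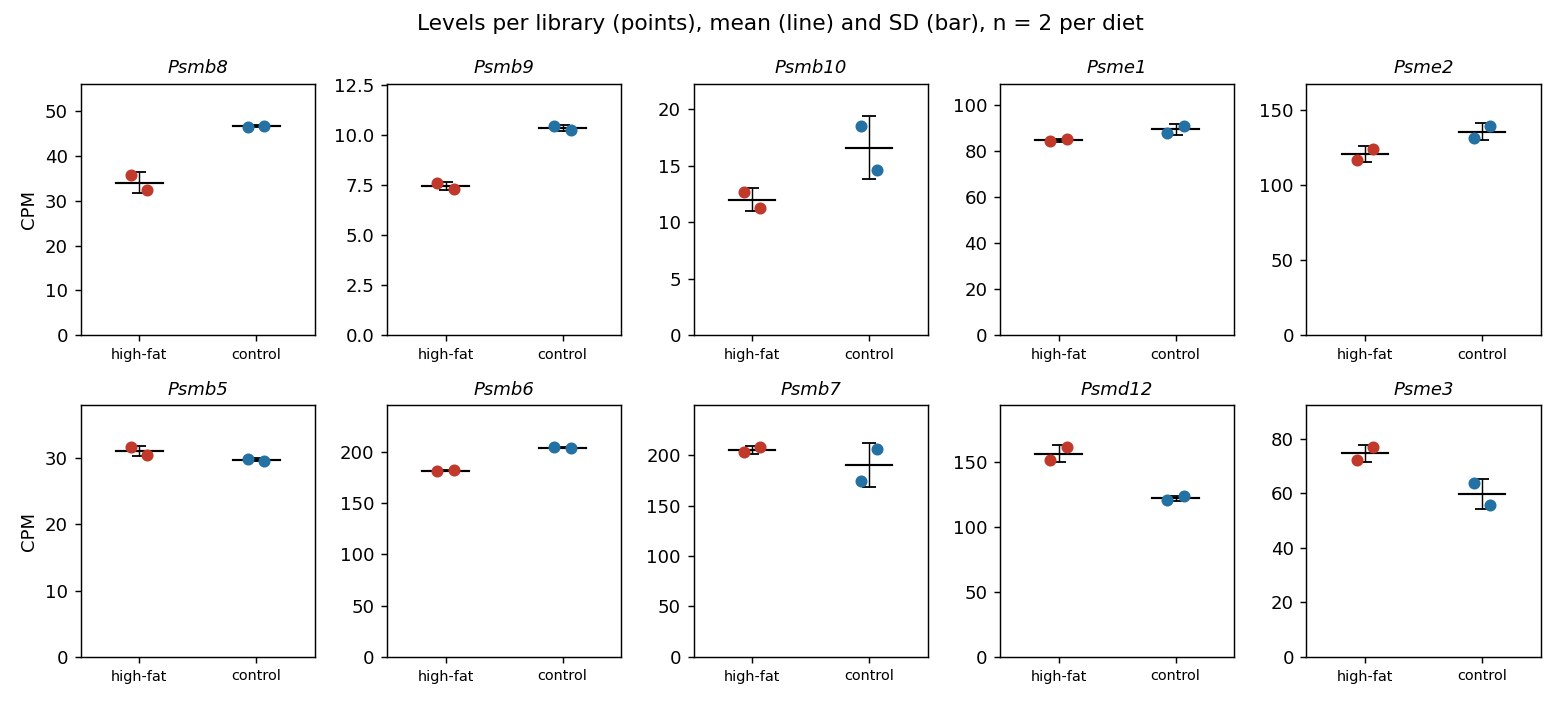
CPM (y axis) in the 2 high-fat and 2 control libraries (points; line, mean; bar, SD) for the 5 immune members, the 3 constitutive catalytic subunits, Psmd12 and Psme3. Psmb8, Psmb9 and Psmb10 lie lower in both high-fat libraries, Psmb5 lies close to 30 CPM in all 4, and Psmd12 and Psme3 lie higher in both high-fat libraries.

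The constitutive catalytic subunits showed no shared direction. Psmb5, the chymotrypsin-like subunit, had 31.6 and 30.5 CPM in the high-fat libraries, against 29.9 and 29.6 CPM in the control libraries (log2 fold change 0.06 ± 0.10). Psmb6, the caspase-like subunit, had 181 and 182 CPM in the high-fat libraries, against 204 and 204 CPM in the control libraries (-0.17 ± 0.09, adjusted p = 0.374, edgeR). Psmb7, the trypsin-like subunit, had 203 and 208 CPM in the high-fat libraries, against 175 and 206 CPM in the control libraries (0.11 ± 0.11), and these overlapped. Psmb6 thus lay on the same side as the immune subunits. Its size was smaller than those of the immune catalytic subunits, near that of Psme2 (-0.17) and larger than that of Psme1 (-0.08).

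Within a library, the ratio of an immune subunit to the subunit it replaces needs no library scaling. Counts per kilobase of exon gave Psmb8 over Psmb5 ratios of 0.803 and 0.756 in the high-fat libraries, against 1.11 and 1.12 in the control libraries. Both high-fat ratios lay below both control ratios; whether Psmb8 exceeded Psmb5 is uncertain, since Psmb5 shares much sequence with other genes. Psmb9 over Psmb6 was 0.0540 and 0.0517 in the high-fat libraries, against 0.0659 and 0.0645 in the control libraries. Psmb10 over Psmb7 was 0.0478 and 0.0413 in the high-fat libraries, against 0.0810 and 0.0542 in the control libraries. High-fat over control, the ratios stood at a fold of 0.699, 0.811 and 0.670, and none of the 3 pairs overlapped between diets. GC content is close for Psmb8 and Psmb5 (55.8% and 56.6%) and for Psmb9 and Psmb6 (55.3% and 55.8%). It differs for Psmb10 and Psmb7 (56.5% and 48.7%). Over all genes the median log2 fold change was -0.17 between 56% and 58% GC and 0.04 between 48% and 50%. The ratios were not adjusted for this. On the log2 scale the Psmb10 over Psmb7 difference of -0.58 was -0.29 without control replicate 1 and -0.87 without control replicate 2. The two-sided exact permutation test gave p = 0.333 for each pair, which is the smallest value that 2 against 2 libraries allow. Summed per kilobase, the immune subunits held 10.4% and 9.46% of the transcripts of these 6 catalytic genes in the high-fat libraries, against 13.7% and 12.4% in the control libraries.

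**Figure D3:**
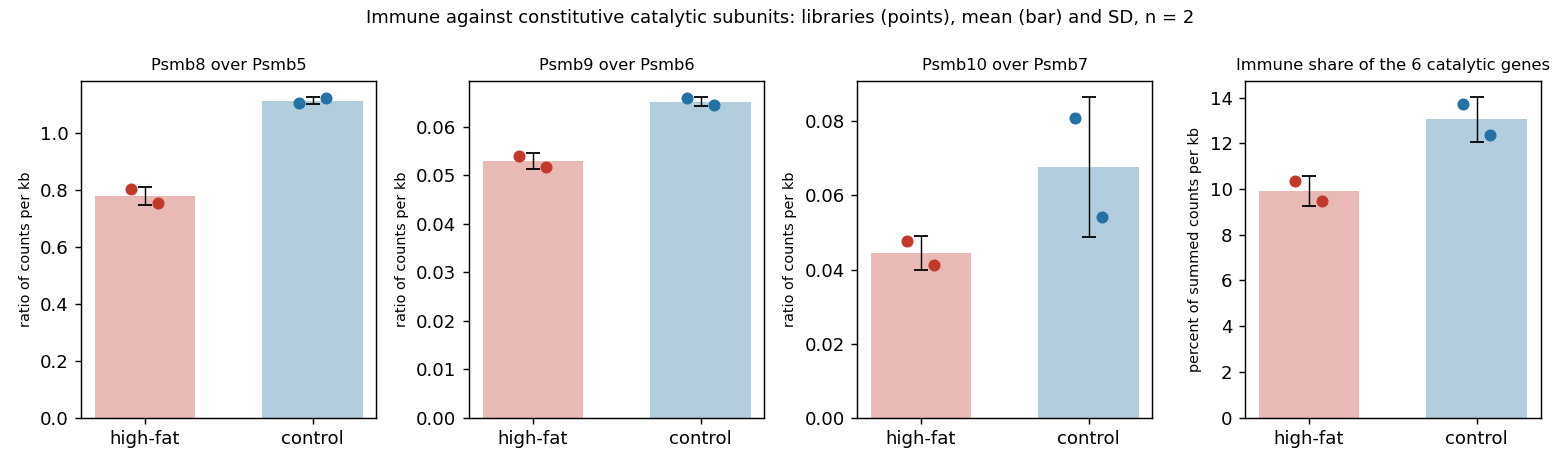
Ratio of counts per kilobase of each immune catalytic subunit to its constitutive counterpart (first 3 panels, y axis) and the immune share of all 6 catalytic genes in percent (last panel), in high-fat and control libraries (points; bar, mean; error bar, SD, n = 2). In all 4 panels the high-fat libraries lie lower without overlap, and the control libraries lie far apart for Psmb10 over Psmb7.

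Shared sequence bears on some of these levels. Of the 50-base words in the Psmb5 transcripts 57.1% also occur in transcripts of other genes, among them the pseudogene Psmb5-ps, and its exon also holds the microRNA Mir686. For Psme2 the share was 55.6%, with Psme2b and Gm7928 as partners, and for Psme1 it was 14.1%. For Psmb8 it was 5.83%, for Psmb9 12.5%, with Tap1, and for Psmb10 0%, while for Psmb7 it was 28.1%, with Nek6. The search covered both strands and did not tell copies elsewhere from overlapping transcripts at the same place. Reads from copies elsewhere align at more than 1 place. The levels of Psmb5 and Psme2, and the ratio of Psmb8 to Psmb5 in both diets, are uncertain for this reason. Psmb7 and Psmb9 overlap no exon of another gene in the authors' gene models, and whether their shared words align at more than 1 place is not known. The level of Psmb7 and the ratio of Psmb10 to Psmb7 may thus be uncertain too. Psme1 overlaps Emc9 by 4 bases and Psma4 overlaps AY074887 by 45 bases on the opposite strand, and whether strand was used in counting is unknown here. Shares above 20% were also found for Psma3, Psma4, Psma5, Psmb3, Psmd2 and the non-subunits Psmc3ip and Psme2b.

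The immune subunits lie in clusters. On chromosome 17 of mm9, the MHC class II region, Psmb9 (34319044 to 34324275, minus strand, 6 exon blocks) and Tap1 (34324501 to 34334170, plus strand) start 226 bases apart and point away from each other, and Psmb8 (34335140 to 34338399, plus strand, 6 exon blocks) and Tap2 follow. The TAP genes encode the peptide transporter that receives the proteasome's products, and they had values on the same side. Tap1 had 15.9 and 12.0 CPM in the high-fat libraries, against 19.1 and 18.1 CPM in the control libraries (log2 fold change -0.41 ± 0.16, adjusted p = 0.241, edgeR). Tap2 had 5.58 and 4.33 CPM in the high-fat libraries, against 7.60 and 5.74 CPM in the control libraries (-0.43 ± 0.21). Psme1 and Psme2 start 12607 bases apart on chromosome 14, and Psmb10 lies alone on chromosome 8 (108459628 to 108462292, minus strand, 8 exon blocks).

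The 250 bases before the start of the 3 immune catalytic genes are shown because these had the lowest fold changes, with those of Psmb5 and Psmb6 as counterparts and of Psmd12, which had the highest fold change. They are RefSeq windows on GRCm38.p6, read 5′ to 3′ along the gene: Psmb8 at chr17:34197945-34198194 (plus strand), Psmb9 at chr17:34187331-34187580 (minus strand), Psmb10 at chr8:105938393-105938642 (minus strand), Psmb5 at chr14:54617996-54618245 (minus strand), Psmb6 at chr11:70525107-70525356 (plus strand) and Psmd12 at chr11:107479278-107479527 (plus strand). Capitals mark matches on either strand to TTCNNNGAA (the GAS element of interferon-gamma-responsive genes), the ISRE element of interferon-responsive genes (GAAA, any 2 bases, GAAA) or TGACNNNGC (the ARE core bound by NRF factors).
Psmb8: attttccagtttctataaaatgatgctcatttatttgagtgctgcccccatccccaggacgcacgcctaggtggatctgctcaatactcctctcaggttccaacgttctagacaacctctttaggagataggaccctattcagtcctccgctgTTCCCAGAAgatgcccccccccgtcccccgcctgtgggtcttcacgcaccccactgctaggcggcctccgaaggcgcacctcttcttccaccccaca
Psmb9: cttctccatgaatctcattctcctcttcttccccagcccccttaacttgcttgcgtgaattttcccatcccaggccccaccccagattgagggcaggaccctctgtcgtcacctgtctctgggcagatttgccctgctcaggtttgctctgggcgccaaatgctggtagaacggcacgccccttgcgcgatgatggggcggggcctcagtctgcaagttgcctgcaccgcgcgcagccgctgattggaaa
Psmb10: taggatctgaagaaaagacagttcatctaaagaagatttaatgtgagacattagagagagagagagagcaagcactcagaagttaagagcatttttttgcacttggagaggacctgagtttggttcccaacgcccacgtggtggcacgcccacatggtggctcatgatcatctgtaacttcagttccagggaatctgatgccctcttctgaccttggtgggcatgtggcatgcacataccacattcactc
Psmb5: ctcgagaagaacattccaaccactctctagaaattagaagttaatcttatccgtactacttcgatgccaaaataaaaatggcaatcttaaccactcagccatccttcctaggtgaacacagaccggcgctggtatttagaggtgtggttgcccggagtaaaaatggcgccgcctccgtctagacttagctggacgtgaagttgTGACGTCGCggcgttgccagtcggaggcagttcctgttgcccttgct
Psmb6: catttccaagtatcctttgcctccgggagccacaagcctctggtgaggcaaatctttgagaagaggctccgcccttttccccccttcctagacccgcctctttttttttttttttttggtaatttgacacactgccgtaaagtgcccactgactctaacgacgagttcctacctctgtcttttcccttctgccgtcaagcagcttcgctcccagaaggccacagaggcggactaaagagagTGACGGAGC
Psmd12: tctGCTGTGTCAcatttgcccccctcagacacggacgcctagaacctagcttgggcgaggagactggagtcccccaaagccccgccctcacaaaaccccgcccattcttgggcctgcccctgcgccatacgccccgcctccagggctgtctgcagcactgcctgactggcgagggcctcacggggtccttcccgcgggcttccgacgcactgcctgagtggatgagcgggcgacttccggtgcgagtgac
TTCNNNGAA occurs in the Psmb8 window, from 97 bases before the start, and in no other of the 38 member genes with a window, against 7.02% of all 32851 windows. The ISRE letters occur in the windows of Psmb3, Psmd4 and Psmd9, none of them an immune subunit, against 2.98% of all windows. TGACNNNGC occurs in Psmb5, Psmb6, Psmc6, Psmd9 and Psmd12, against 10.2% of all windows. Psma8, Psmb1, Psmb2, Psmb7, Psmc3, Psmd3 and Psmd7 had no entry. A match says only that these letters are present. On mm9 the first bases of Psmb9 and Tap1 lie 226 bases apart, so the far end of the 250-base Psmb9 window reaches into Tap1.

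The other subunits lay mostly on the opposite side from the immune ones. Of the 37 kept, 26 had a log2 fold change above 0, against 49.2% of all genes, and the median was 0.13. In 18 (48.6%) the diets were separated with high-fat diet higher, against 26.1% of all genes tested. Another 3 lay wholly below, against 24.9% of all genes: Psma7, Psmb3 and Psmb6. An unadjusted p under 0.05 was reached by 9 of the 37, all higher with high-fat diet, against 8.56% of all genes in that direction. None of these differences exceeded 0.36 on the log2 scale.

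In the 19S cap 13 of 17 genes were above 0, against 49.2% of all genes, and 10 did not overlap between diets, all higher with high-fat diet, against 26.1% of all genes. The largest value was that of Psmd12, a scaffold subunit of the lid, with 152 and 162 CPM in the high-fat libraries, against 121 and 124 CPM in the control libraries. Its diets did not overlap, and its replicates differed by less than the diets did (log2 fold change 0.36 ± 0.09, 95% interval 0.15 to 0.57, adjusted p = 0.117, edgeR). Psmd14, the deubiquitinase that removes ubiquitin from the substrate, had 190 and 205 CPM in the high-fat libraries, against 150 and 173 CPM in the control libraries (0.29 ± 0.11, adjusted p = 0.231, edgeR). Its inactive partner Psmd7 had 66.0 and 69.8 CPM in the high-fat libraries, against 60.6 and 53.3 CPM in the control libraries (0.25 ± 0.10). The lid subunit Psmd6 had 174 and 176 CPM in the high-fat libraries, against 135 and 159 CPM in the control libraries (0.25 ± 0.11). All 3 were separated between diets, with control replicates that differed among themselves.

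The base ATPases, which form the ring that unfolds substrates, had log2 fold changes from -0.07 (Psmc3) to 0.27 (Psmc6). Psmc2 had 116 and 116 CPM in the high-fat libraries, against 103 and 95.7 CPM in the control libraries (0.22 ± 0.09, adjusted p = 0.276, edgeR). Psmc1 had 163 and 161 CPM in the high-fat libraries, against 144 and 144 CPM in the control libraries (0.17 ± 0.09). Psmc6 had 280 and 292 CPM in the high-fat libraries, against 213 and 262 CPM in the control libraries (0.27 ± 0.12). All 3 were higher in both high-fat libraries, while Psmc3, Psmc4 and Psmc5 overlapped. Of the remaining non-ATPases, Psmd13 had 98.3 and 96.8 CPM in the high-fat libraries, against 85.3 and 89.5 CPM in the control libraries (0.16 ± 0.09), and the ubiquitin receptor Psmd4 overlapped (-0.05 ± 0.11).

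The alpha ring, the gate of the core, had 6 of 7 genes above 0, against 49.2% of all genes, and a median of 0.16. Psma6 had 328 and 348 CPM in the high-fat libraries, against 251 and 302 CPM in the control libraries (0.29 ± 0.11, adjusted p = 0.254, edgeR). Psma2 had 267 and 266 CPM in the high-fat libraries, against 219 and 252 CPM in the control libraries (0.18 ± 0.10). Both were higher in each high-fat library, but the control replicates stood apart: all 7 alpha genes were lower in control replicate 1 than in control replicate 2, by 0.19 to 0.38 on the log2 scale, against diet differences from -0.16 to 0.29. Without control replicate 1 the value of Psma6 was 0.16, that of Psmc6 0.12, that of Psmd6 0.13 and that of Psmd14 0.18, while Psmd12 kept 0.33. Psma7 went the other way, with 105 and 112 CPM in the high-fat libraries, against 113 and 130 CPM in the control libraries. The structural beta genes Psmb1 to Psmb4 lay between -0.09 and 0.06.

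**Figure D4:**
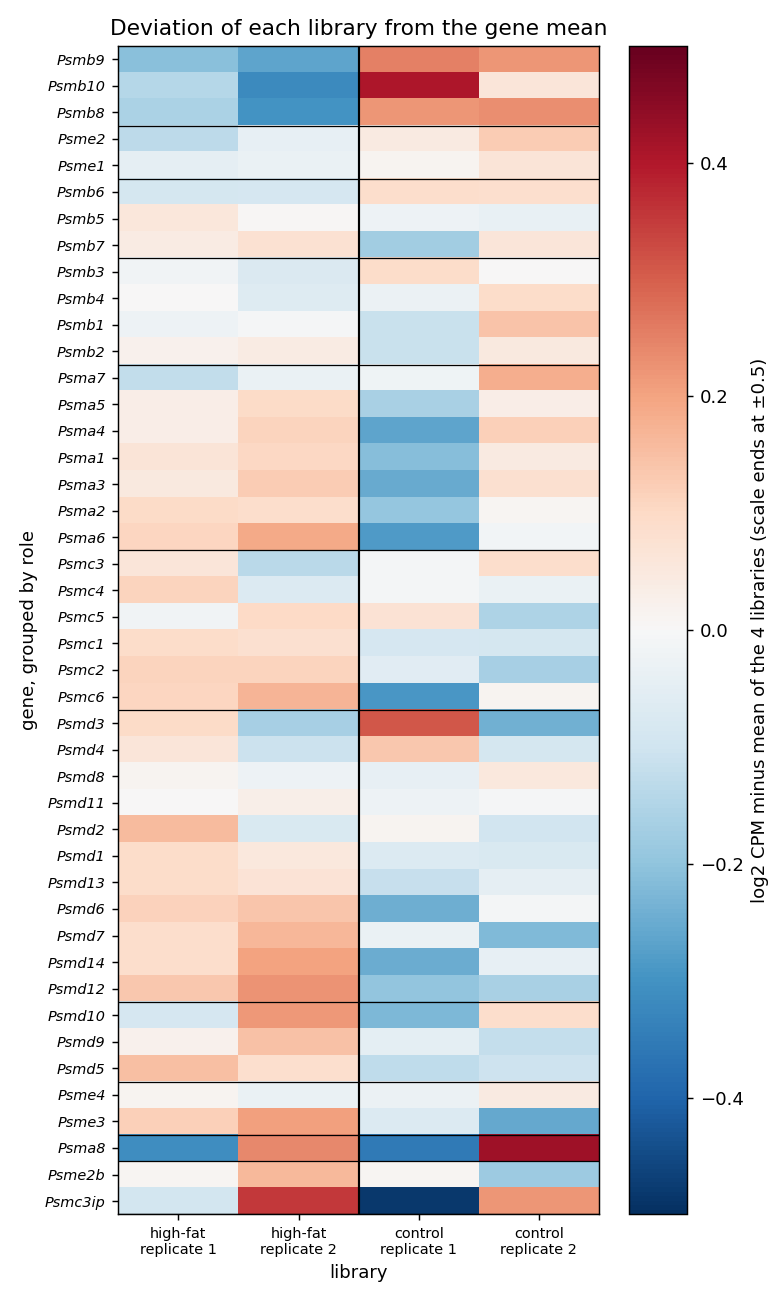
Each kept member (rows, grouped by role) in each library (columns), as log2 CPM minus the gene's mean over the 4 libraries, on a colour scale that ends at -0.5 and 0.5. The immune catalytic subunits are low in both high-fat libraries, and most alpha ring genes are low in control replicate 1 alone.

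Among the activators other than PA28 alpha and beta, Psme3 and Psme4 differed in their values. Psme3, the nuclear PA28 gamma, had 72.4 and 76.9 CPM in the high-fat libraries, against 63.7 and 55.9 CPM in the control libraries. Its libraries did not overlap (log2 fold change 0.32 ± 0.10, 95% interval 0.09 to 0.55, adjusted p = 0.181, edgeR), so it lay opposite to Psme1 and Psme2. Psme4, encoding PA200, had 185 and 179 CPM in the high-fat libraries, against 180 and 189 CPM in the control libraries, and these overlapped. The chaperones of base assembly Psmd5, Psmd9 and Psmd10 had log2 fold changes from 0.13 to 0.23, the highest being Psmd5 with 81.8 and 78.1 CPM in the high-fat libraries, against 67.4 and 68.7 CPM in the control libraries. Psma8, the alpha subunit of the testis, had 2.99 and 4.38 CPM in the high-fat libraries, against 2.91 and 4.97 CPM in the control libraries. Psme2b had log2 fold change 0.17 ± 0.23 and Psmc3ip 0.23 ± 0.34, both at under 3 CPM.

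Levels per exon length (RPKM, the mean of all 4 libraries) placed the immune catalytic subunits near the low end of the complex. Psmb8 stood at 33.0, Psmb10 at 11.3 and Psmb9 at 11.04 RPKM, while the 14 constitutive core genes ran from 34.9 (Psmb5) to 308 (Psma6) with a median of 178. PA28 was well represented, with Psme2 at 131 and Psme1 at 89.1 RPKM. The highest member was Psmd8, a lid subunit, at 409 RPKM, and the lowest kept subunits were Psmd3 at 6.40, Psmd9 at 3.53 and Psma8 at 2.25 RPKM. The neighbours Psmb9 and Psmb10 did not differ beyond their spread with either diet: 9.25 ± 0.259 and 9.44 ± 0.805 RPKM with high-fat diet, and 12.8 ± 0.204 and 13.1 ± 2.19 RPKM with control diet (SD, n = 2). Psmb8 and Psmb5 had 27.8 ± 1.90 and 35.7 ± 0.921 RPKM with high-fat diet, against 38.1 ± 0.201 and 34.2 ± 0.212 RPKM with control diet, and their order is uncertain because of the shared sequence of Psmb5.

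The GC content of the transcripts moved with the diet difference. Over all genes with a GC value, the median log2 fold change was 0.17 in the bin from 36% to 38% GC and -0.33 in the bin from 62% to 64%. Psmb8, Psmb9 and Psmb10 have 55.8%, 55.3% and 56.5% GC, and the 1125 kept genes between 55% and 57% had a median of -0.14. The 10 members with the highest values had a median of 46.9% GC. Across the 44 members the log2 fold change and GC content had Pearson's r of -0.58 and Spearman's rho of -0.61, as a description over genes that share the same libraries. Without the 5 immune members both values were -0.49. With each library's trend on GC content and exon length removed (an alternative added after the data were seen), Psmb8 had -0.38 (adjusted p = 0.0631, edgeR), Psmb9 -0.39 and Psmb10 -0.38, Psmd12 had 0.21 and Psmc6 0.07. Psme1 had -0.01 and Psme2 -0.17. The median of the other subunits was then 0.06. An unadjusted p under 0.05 was then reached by 8 of the 44 members, against 18.2% of all genes (edgeR).

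**Figure D5:**
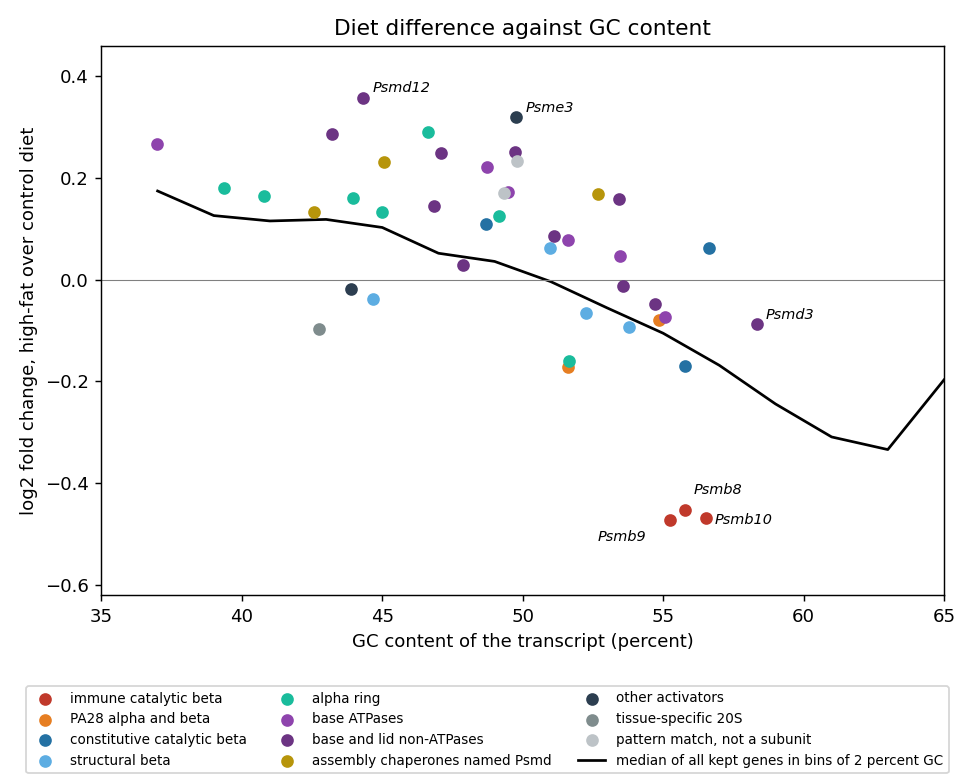
Log2 fold change of high-fat over control diet (y axis) against transcript GC content in percent (x axis) for the 44 kept members, coloured by role, with the median of all kept genes in bins of 2% GC as a line. Psmb8, Psmb9 and Psmb10 lie below the line at 55% to 57% GC, and most 19S and alpha ring genes lie on or above it.

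Other genes of the pathway were examined in lists. In the list of proteasome assembly and regulation 13 of 22 genes were above 0, against 49.2% of all genes, with a median of 0.06. In edgeR over all genes 0 passed, and 4 (18.2%) had an unadjusted p under 0.05, against 17.0% of all genes. Uchl5, a deubiquitinase bound to the cap, had 52.0 and 52.1 CPM in the high-fat libraries, against 36.4 and 40.8 CPM in the control libraries (0.43 ± 0.10, adjusted p = 0.0936, edgeR). The cap-associated proteins Txnl1 and Usp14 had log2 fold changes of 0.35 and 0.24, and the ubiquitin shuttle Ubqln2 had -0.46. Nfe2l1, the transcription factor that raises proteasome genes when proteolysis fails, had 69.4 and 74.5 CPM in the high-fat libraries, against 87.7 and 58.9 CPM in the control libraries, and the core assembly factor Pomp had 153 and 177 CPM in the high-fat libraries, against 146 and 170 CPM in the control libraries. Both overlapped between diets.

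In the list of class I peptide loading 8 of 12 genes were below 0, against 50.8% of all genes (median -0.06). In edgeR 0 passed and 1, Tap1, had an unadjusted p under 0.05 (8.33% of the list, against 17.0% of all genes). Nlrc5, the activator of class I and immune proteasome genes, averaged 18.8 ± 0.240 CPM with high-fat diet and 22.6 ± 2.27 CPM with control diet (SD, n = 2 each), a log2 fold change of -0.26 ± 0.13 (SE). The class I chains H2-K1 and H2-D1 had -0.13 and -0.12, and B2m 0.06. Canx, Calr and Pdia3, chaperones that help class I molecules to fold and load, had 0.17, 0.10 and 0.09. All 3 were separated with high-fat diet higher. In the whole list 3 were separated with high-fat diet higher and 5 lower, against 26.1% and 24.9% of all genes. In the list of interferon signalling 10 of 13 kept genes were below 0, against 50.8% of all genes (median -0.12). Of these 7 were separated by diet, against 24.9% of all genes separated with high-fat diet lower. None passed in edgeR, and 2 (15.4%) had an unadjusted p under 0.05, against 17.0% of all genes. These were Irf1 (-0.28 ± 0.09, adjusted p = 0.198, edgeR) and Irf2 (-0.33 ± 0.14, adjusted p = 0.266, edgeR). Irf1, the interferon-induced factor that acts on Psmb9 and Tap1, had 54.3 and 57.9 CPM in the high-fat libraries, against 67.6 and 68.4 CPM in the control libraries, without overlap. Irf8 and Stat2, other factors of the interferon response, had -0.19 ± 0.11 and -0.33 ± 0.17, and the diets overlapped for Stat2.

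In the list of ubiquitin conjugation 9 of 14 kept genes were above 0, against 49.2% of all genes (median 0.13). In edgeR 0 passed, and 5 (35.7%) had an unadjusted p under 0.05, against 17.0% of all genes. The polyubiquitin gene Ubb had a log2 fold change of -0.33 ± 0.10, the E2 enzymes Ube2s and Ube2g1 -0.38 ± 0.12 and 0.27 ± 0.10, and Uba7, the activating enzyme of the ubiquitin-like ISG15, -0.60 ± 0.21. Ubb had 248 and 230 CPM in the high-fat libraries, against 315 and 288 CPM in the control libraries, without overlap.

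Markers of other cells differed between the same libraries. The 7 macrophage markers in the tables summed to 19643 and 24071 CPM in the high-fat libraries, against 26436 and 25334 CPM in the control libraries. Lyz2, the lysozyme gene, made up most of these sums, with 16399 and 20994 CPM in the high-fat libraries, against 22930 and 22094 CPM in the control libraries. Of the other markers Mertk fell (log2 fold change -0.69 ± 0.12, adjusted p = 0.0449, edgeR), Csf1r had -0.52 and Cd68 0.14. Emr1, the older symbol of Adgre1, which defines mouse macrophages, had 977 and 964 CPM in the high-fat libraries, against 1016 and 1032 CPM in the control libraries. The 6 dendritic cell markers summed to 3.83 and 4.33 CPM in the high-fat libraries, against 10.8 and 11.3 CPM in the control libraries, and the 5 neutrophil markers to 53.1 and 49.1 CPM in the high-fat libraries, against 81.6 and 85.0 CPM in the control libraries. The 7 B cell markers summed to 63.1 and 159 CPM in the high-fat libraries, against 61.7 and 59.1 CPM in the control libraries, and the 8 T and NK cell markers to 3.92 and 18.8 CPM in the high-fat libraries, against 5.09 and 7.11 CPM in the control libraries. The 8 mesothelial and fibroblast markers summed to 122 and 66.2 CPM in the high-fat libraries, against 16.3 and 23.4 CPM in the control libraries. In edgeR's test Cd209a (-2.34 ± 0.28, adjusted p = 0.0161) of the dendritic cell list and Mmp9 (-1.48 ± 0.18, adjusted p = 0.0161) and Csf3r (-0.69 ± 0.12, adjusted p = 0.0476) of the neutrophil list fell, while Igj (1.90 ± 0.34, adjusted p = 0.0476) of the B cell list and Lum (2.77 ± 0.41, adjusted p = 0.0310) of the mesothelial and fibroblast list rose. No marker found was at 0 in all libraries, and the neutrophil gene Ly6g was sought by that symbol but is not among the counted genes. The part of these cells in the proteasome values was not tested.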

How the data were processed

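The deposited tables hold raw read counts per gene, 1 table per library, with no normalization by the authors. Per the submitters' processing notes TopHat2 2.0.10, Cufflinks 2.1.1, HTSeq and the mm9 build were used; neither the aligner settings nor any strand setting of the counting is stated there. The 5 HTSeq summary lines were left out of library sizes. The authors' gene models gave exon positions and lengths on mm9. Low-count genes were removed with edgeR 4.0.16's filterByExpr (minimum count 10, minimum total 15), and the rest entered its quasi-likelihood test with robust fitting, TMM scaling and a model of diet alone, which leaves the 4 libraries 2 residual degrees of freedom before moderation. Benjamini-Hochberg adjustment ran over all 12747 kept genes. DESeq2 1.42.0 and limma 3.58.1 (voom) were alternatives, and the edgeR fit was tested on simulated data. Between replicates the chi-square per degree of freedom over genes was 34.9 (high-fat) and 33.8 (control), so no library is a copy of another. RPKM is CPM per kilobase of merged exon. GC content and shared 50-base words come from GENCODE M21 transcripts. The members and lists were chosen with earlier results of these data known. Full values are given for the 5 immune members, Psmb5, Psmb6, Psmb7 and the 12 other members with the smallest p, while of each pathway list up to 4 genes with the smallest p, and of each marker list the genes passing, are named. Psma7, Psma8, Psmd4, Psme4, Sqstm1, Nfe2l1, Pomp, H2-K1, H2-D1, B2m, Calr, Pdia3, Lyz2, Csf1r, Cd68, Emr1 and S100a8 were added after their values were seen. Alternatives were other scaling, filters and tools, RefSeq genes only, a replicate block and leaving out each library.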

Additional observations from a re-analysis of the deposited data

How the results depend on the processing

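The count of members passing an adjusted p of 0.05 was 0 in the edgeR fit and 1 with DESeq2, with no low-count filter (where 3.00% of all genes passed) and without high-fat replicate 1 (6.46% of all genes), each time Psmb8, whose adjusted p was then 0.0292, 0.0152 and 0.0299; leaving out each library in turn gave 0 to 1 members. All 5 immune members stayed below 0 in every alternative run, but Psme1 only just, at -0.012 with the GC and length trend removed. Without single libraries the median log2 fold change ran from -0.50 to -0.29 for the immune members, from 0.061 to 0.16 for the other subunits, and from -0.65 to -0.36 for their difference, which was -0.58 with all libraries. Without control replicate 1 the immune median was -0.29. With all libraries the immune median of -0.45 was the value of Psmb8. Psme1 (-0.08) and Psme2 (-0.17) lay no lower than about the level of Psmb6 (-0.17), so the difference describes the catalytic subunits and not PA28. With the trend on GC content and exon length removed, chosen after seeing the data, the immune median was -0.38. The median of the other subunits was then 0.057 and the difference -0.43. Psmb7, at 0.11 with all libraries, was -0.0093 without control replicate 1 and at most 0.23 without another single library. The pair ratios, on the log2 scale, ran from -0.56 to -0.47 for Psmb8 over Psmb5, from -0.33 to -0.27 for Psmb9 over Psmb6 and from -0.87 to -0.29 for Psmb10 over Psmb7. Same-numbered libraries of the diets deviated with a correlation of 0.09 across genes. With 2 libraries per diet this neither shows nor excludes a pairing by number. With the replicate block 0 members passed, with Psmb8 at -0.45 (adjusted p = 0.0667, edgeR), and 113 of all genes. Over all genes the calls went from 78 to 366 with DESeq2, 522 with no low-count filter, 46 with a 1 CPM filter, 28 with limma-voom, 138 with the GC and length trend removed, and 3 to 823 without single libraries. Depth limits Psmb9 most among the immune members, with 292 to 421 counts a library. Another 236 single-gene values kept their direction and side of the threshold.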

Other observations

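Autophagy is the other main route of protein breakdown, and the genes of its list lay on both sides. Of its 8 genes 5 had a log2 fold change above 0, against 49.2% of all genes (median 0.03, against -0.01 over all genes). By diet 2 were separated and higher with high-fat diet and 2 lower (26.1% and 24.9% of all genes). In edgeR's test 0 passed, and 1 (12.5%) had an unadjusted p under 0.05, against 17.0% of all genes. This was Atg7, an enzyme of autophagosome formation (-0.34 ± 0.12). It had 40.2 and 36.3 CPM in the high-fat libraries, against 52.7 and 44.4 CPM in the control libraries. Sqstm1, a receptor that carries ubiquitin-tagged cargo to autophagosomes, had 565 and 587 CPM in the high-fat libraries, against 590 and 548 CPM in the control libraries, and these overlapped. Becn1 had 0.19 ± 0.09, Atg5 0.22 ± 0.11 and Ulk1 -0.37 ± 0.21 on the log2 scale.

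The summed CPM of the 44 kept members was 6275 and 6314 in the high-fat libraries, against 5618 and 6141 in the control libraries, and their unscaled counts made up 0.638% and 0.622% of gene counts in the high-fat libraries, against 0.568% and 0.606% in the control libraries.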
